A study of Mus musculus with 9 samples.

Results

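The circadian clock genes of the right ventricle were taken as the 10 rows of the deposited gene table named Per1, Per2, Per3, Dbp, Tef, Hlf, Nr1d1, Nr1d2, Arntl and Clock, out of 54532 genes. All 10 passed the filter on low values that left 13477 genes for testing. RNA sequencing had been run on right ventricular myocardium of wild-type C57BL/6 mice, labelled as postnatal day 7, in 9 libraries. The CsA group (3 libraries) had fistula surgery and injection of cyclosporin A, which binds cyclophilins and blocks the phosphatase calcineurin. The VO group (3 libraries) had the fistula surgery alone, which overloads the heart with blood volume, and the Sham group (3 libraries) had the control operation. The pups were kept with their mothers under 12 h of light and 12 h of darkness. The labels give neither the hour of tissue collection nor the interval from surgery to collection. They also do not say that each library is a separate animal, so the p-values measure the spread between these libraries, which may be technical.

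The mammalian clock is a transcriptional feedback loop. CLOCK and its partner ARNTL (also called BMAL1) bind E-box sequences and switch on the Per and Cry genes, whose proteins return to the nucleus and block the pair. A second loop runs through the nuclear receptors NR1D1 and NR1D2 (REV-ERB alpha and beta), which repress Arntl at ROR elements. DBP, TEF and HLF, the PAR bZIP factors, carry the rhythm outward by binding D-box sequences. Heart muscle has such a clock of its own, known to shape its metabolism and electrical rhythm over the day. Per1 is in addition a quick-response gene, induced by glucocorticoids and by cAMP signalling.

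Promoter windows are shown to place the members in this loop. RefSeq windows (GRCm38.p6), running from 250 bases before a start site to 50 bases from it, were found for 9 of the 10 members; Per2 had none in the table used. Each window was searched on both strands for the E-box CACGTG, the related E-prime box CACGTT, the D-box as TTATGTAA or TTACGTAA, the cAMP response element TGACGTCA and the end of the ROR element as TAGGTCA or TGGGTCA. Shown are the windows of Per1 and Dbp, the members that passed the test below, of Nr1d1, and of Per3 and Arntl for their loop elements. Capitals mark the matches. The windows are chr11:69098699-69098998 on the plus strand for Per1, chr7:45704997-45705296 on the plus strand for Dbp, chr11:98775328-98775627 on the minus strand for Nr1d1, chr4:151044616-151044915 on the minus strand for Per3 and chr7:113207261-113207560 on the plus strand for Arntl.
Per1: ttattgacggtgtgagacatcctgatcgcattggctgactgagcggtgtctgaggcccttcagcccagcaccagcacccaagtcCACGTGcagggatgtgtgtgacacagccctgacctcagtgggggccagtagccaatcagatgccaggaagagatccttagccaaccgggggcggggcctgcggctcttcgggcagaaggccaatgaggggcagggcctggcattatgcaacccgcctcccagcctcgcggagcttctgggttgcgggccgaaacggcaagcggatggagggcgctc
Dbp: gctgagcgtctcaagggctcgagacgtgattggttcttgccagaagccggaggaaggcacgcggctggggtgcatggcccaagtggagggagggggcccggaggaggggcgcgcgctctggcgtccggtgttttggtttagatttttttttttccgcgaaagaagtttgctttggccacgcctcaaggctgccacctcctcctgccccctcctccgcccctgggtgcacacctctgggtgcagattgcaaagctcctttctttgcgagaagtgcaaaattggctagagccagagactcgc
Nr1d1: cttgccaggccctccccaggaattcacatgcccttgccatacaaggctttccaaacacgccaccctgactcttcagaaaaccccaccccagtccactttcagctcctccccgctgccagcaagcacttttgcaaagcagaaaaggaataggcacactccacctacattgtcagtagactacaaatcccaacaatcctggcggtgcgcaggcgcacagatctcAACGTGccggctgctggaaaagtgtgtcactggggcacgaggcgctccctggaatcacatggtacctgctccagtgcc
Per3: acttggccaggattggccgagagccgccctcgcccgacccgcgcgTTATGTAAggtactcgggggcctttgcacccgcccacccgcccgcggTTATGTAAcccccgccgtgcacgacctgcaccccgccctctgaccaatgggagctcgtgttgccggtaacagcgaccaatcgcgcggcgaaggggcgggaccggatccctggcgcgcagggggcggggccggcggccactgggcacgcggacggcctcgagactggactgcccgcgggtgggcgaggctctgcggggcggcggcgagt
Arntl: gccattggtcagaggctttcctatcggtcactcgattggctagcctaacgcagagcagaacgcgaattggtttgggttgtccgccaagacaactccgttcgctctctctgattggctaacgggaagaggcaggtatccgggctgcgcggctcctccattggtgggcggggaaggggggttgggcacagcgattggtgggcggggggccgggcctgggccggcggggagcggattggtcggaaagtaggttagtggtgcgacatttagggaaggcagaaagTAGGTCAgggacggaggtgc
The Per1 window held 1 E-box, which began at position -166 from the start site. The other Per1 window in the table held none of these motifs, and both Per1 start sites lie inside the gene interval of the deposited table. Tef had 1 E-box in each of its windows. The Nr1d1 window held 1 E-prime box, the Per3 window 2 D-boxes and the Hlf window 1 cAMP response element, while 1 of the Arntl windows held a ROR element core that began 30 bases after the start. The Dbp, Nr1d2 and Clock windows held no match, which says only that these letters are not in these windows. Among 32851 RefSeq windows of the same length, 7.15% held the E-box, 4.68% the E-prime box, 1.06% the D-box, 1.79% the cAMP response element and 6.45% the ROR element core.

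Several libraries stood apart before any comparison. Libraries held between 12046288 and 15986747 fragments assigned to genes. In VO 3, mitochondrially encoded genes took 11.01% of fragments, against 22.18% to 26.34% in the other 8 libraries, and the erythroid markers summed to 1666 FPKM against at most 856.7 FPKM elsewhere. The adipocyte markers summed to 455.8 FPKM in VO 3, against 110.7 to 174.7 FPKM elsewhere, and 17003 genes were above 0 in VO 3, against 19619 to 20479. The 5 atrial markers summed to 558.7 and 585.7 FPKM in Sham 1 and Sham 3 and to 144.7 FPKM in CsA 3, against 2.10 to 22.98 FPKM in the other libraries. The Y-linked gene Ddx3y had 18.6 FPKM in Sham 2 and was listed at 0 elsewhere, so the libraries were not all of 1 sex. The 7 ventricular cardiomyocyte markers summed to between 4465 and 6159 FPKM in CsA, 2966 and 5391 FPKM in VO and 5066 and 6237 FPKM in Sham, and none of the 42 markers checked was at 0 throughout. In bulk tissue, fewer cells of a type and less RNA per cell cannot be told apart.

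The members differed widely in level. FPKM, a fragment count scaled to gene length and to library size, allows genes to be compared per length. Over the 9 libraries Nr1d2 averaged 22.4 FPKM, Tef 17.4, Hlf 7.88, Per1 7.74, Clock 7.34, Nr1d1 6.46, Per3 3.81, Dbp 3.77, Per2 3.35 and Arntl 1.56 FPKM. Nr1d2 lay above 87.79% of the tested genes by mean level and Arntl above 22.36%. Tef exceeded Hlf, and Per2 exceeded Arntl, in 9 of 9 libraries, and Nr1d2 exceeded Tef in 7 of 9. The order among Hlf, Per1, Clock and Nr1d1 was not settled, with each next gene lower in 4 or 5 of 9 libraries, nor was that among Per3, Dbp and Per2, at 4 and 6 of 9. Arntl rested on 70 to 242 fragments in a library and Dbp on 80 to 211, the thinnest of the set, whereas Nr1d2 and Tef had over 1270 in each.

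**Figure D1:**
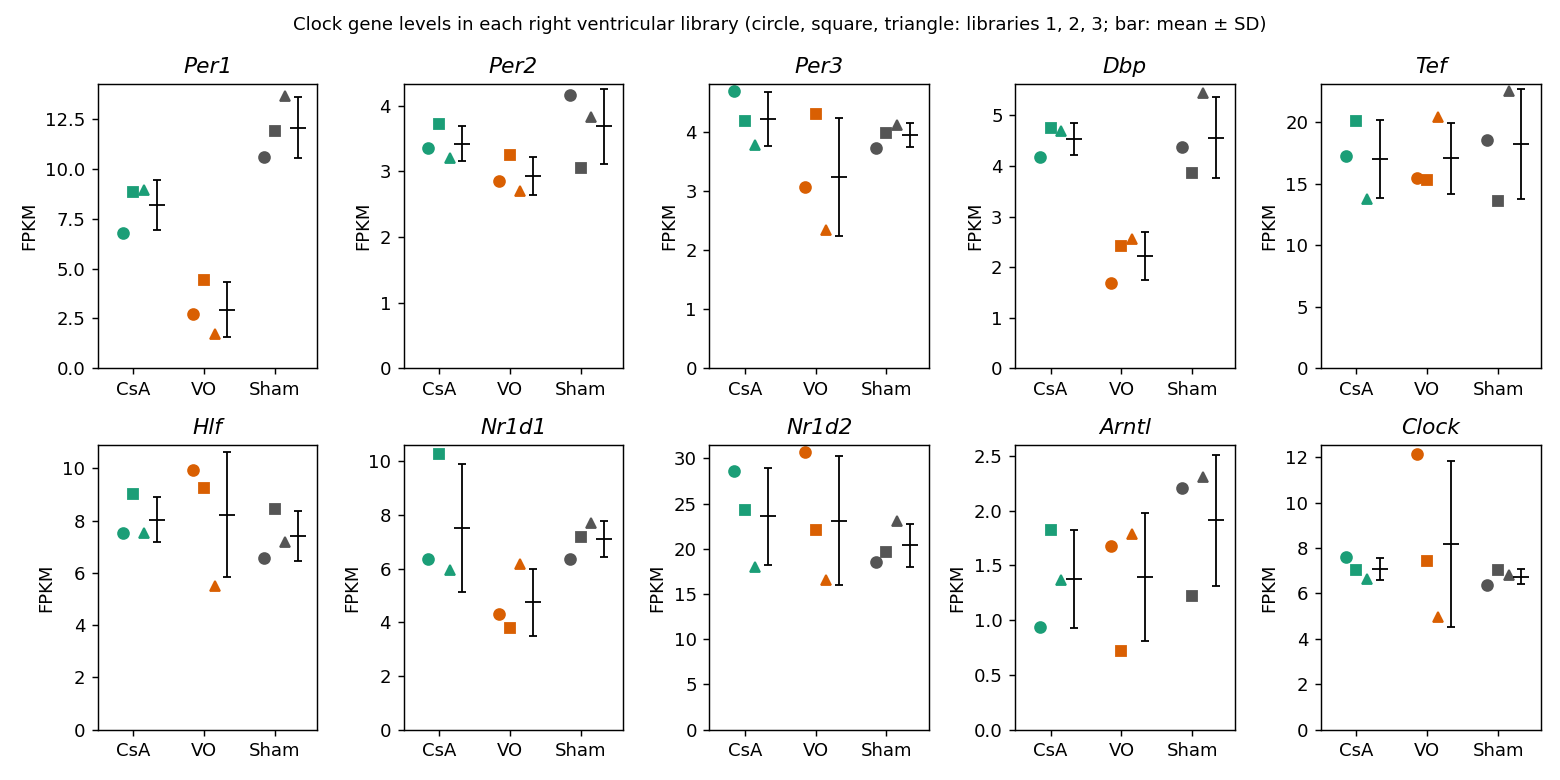
FPKM (y axis, from 0) of each clock gene in the CsA, VO and Sham libraries (x axis), with points for libraries 1 to 3 and a bar for the group mean ± SD. Per1 and Dbp are the genes whose VO libraries all lie under every CsA and every Sham library; in the panels for Clock, Nr1d2 and Hlf the VO libraries spread widely, with VO 1 highest and VO 3 lowest.

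The comparison of VO with Sham asks which clock transcripts differ between hearts with the fistula and hearts with the control operation. Per1 and Dbp were lower in VO, and the other 8 members did not pass the test. The hour of collection is not given, so its part in group differences cannot be told apart from surgery or drug and was not tested. Of all tested genes, 4.76% passed (642 of 13477), 2.72% as lower and 2.04% as higher. Of the members 7 of 10 lay below 0, with a median log2 fold change of -0.25, against 49.64% of all tested genes and a median of 0.00. At an unadjusted p under 0.05 in limma stood 3 members and 29.3% of all tested genes. Libraries did not overlap, with VO lower, for 3 members (Per1, Dbp and Nr1d1), and for 17% of tested genes, so these members' count is read against a wide background of separation. The test was limma on log2(FPKM + 1) with all 9 libraries in the fit, two-sided, with Benjamini-Hochberg adjustment over all tested genes and a threshold of 0.05. On this scale folds of low genes are understated.

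Per1 (ENSMUSG00000020893, chromosome 11, 69095217 to 69109960, plus strand, GRCm38), a repressor arm gene of the loop, was the member that differed most. It stood at 2.719, 4.433 and 1.70 FPKM in VO 1 to 3, against 10.63, 11.93 and 13.69 FPKM in Sham 1 to 3. Every VO library lay below every Sham library by a wide gap. Its mean was 2.95 ± 1.38 FPKM in VO, against 12.08 ± 1.54 FPKM in Sham (SD, n = 3 each), a ratio of 0.244. The log2 fold change was -1.78 ± 0.239 (SE; 95% interval -2.32 to -1.24; limma adjusted p = 0.0382). These levels rested on 165 to 322 fragments in VO and 873 to 999 in Sham. Ranked by level within a library, Per1 was at place 8, 5 and 10 of the 10 members in VO 1 to 3, but at place 3 in every Sham library.

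Dbp (ENSMUSG00000059824, chromosome 7, 45705088 to 45710203, plus strand), the PAR bZIP factor known as a direct target of the CLOCK and ARNTL pair, stood at 1.677, 2.409 and 2.558 FPKM in VO, against 4.375, 3.868 and 5.44 FPKM in Sham. Again no VO library reached the lowest Sham library. Its mean was 2.21 ± 0.472 FPKM in VO, against 4.56 ± 0.802 FPKM in Sham, a ratio of 0.486, and the log2 fold change was -0.79 ± 0.16 (limma adjusted p = 0.0396). Of the exon bases of Dbp, 18.0% also lie in exons of Sphk2 on the other strand. The library kit named in the labels is not given as stranded and no source used here states the strand setting of the counting, so reads there cannot be assigned with certainty. The mean of Sphk2 was 1.92 ± 0.204 FPKM in VO, against 3.41 ± 1.02 FPKM in Sham (log2 -0.57 ± 0.193, limma adjusted p = 0.0956).

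The calls for Per1 and Dbp rested on a narrow margin. Over 24 other processing settings both stayed below 0 in all 24, Per1 between -2.16 and -1.04 and Dbp between -1.04 and -0.28, while Per1 passed in 13 and Dbp in 11. Both calls were lost without VO 1, Sham 1, Sham 3, CsA 1 or CsA 3, with limma adjusted p of 0.0845, 0.183, 0.143, 0.0525 and 0.0682 for Per1 and 0.088, 0.183, 0.147, 0.0573 and 0.0711 for Dbp. Without Sham 2, the library with Y-linked transcripts, Per1 passed (adjusted p = 0.0451) and Dbp did not (adjusted p = 0.0524). Without VO 3 both passed, Per1 at -1.53 ± 0.196 (limma adjusted p = 0.0301) and Dbp at -0.87 ± 0.159 (limma adjusted p = 0.0319). Without the 3 libraries high in atrial markers, Per1 was at -1.77 ± 0.409 and Dbp at -0.61 ± 0.282 (limma adjusted p = 0.976 for each), with Sham 2 as the lone Sham library, which is assumed to vary like the others.

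Summed markers of other cell types are given beside these genes. The 5 endothelial markers summed to between 179.5 and 198.8 FPKM in VO and 253.9 and 290.9 FPKM in CsA, against 242.5 to 272.2 FPKM in Sham, and 1 of the 5 passed the test in VO against Sham. The 5 smooth muscle and pericyte markers summed to between 534.1 and 697.5 FPKM in VO and 688.1 and 787.6 FPKM in CsA, against 695.1 to 1009 FPKM in Sham, with VO and Sham overlapping and 1 of 5 past the test. The 5 fibroblast markers summed to between 773.9 and 847.7 FPKM in VO and 682.6 and 760.8 FPKM in CsA, against 600.3 to 749.2 FPKM in Sham, with 1 of 5 past the test. Of all tested genes, 4.76% passed in VO against Sham. A sum of FPKM weighs the most abundant marker most, so it does not show that all markers of a list moved together. No marker of these lists passed in CsA against VO, and the part of cell makeup in the Per1 and Dbp values was not tested.

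**Figure D2:**
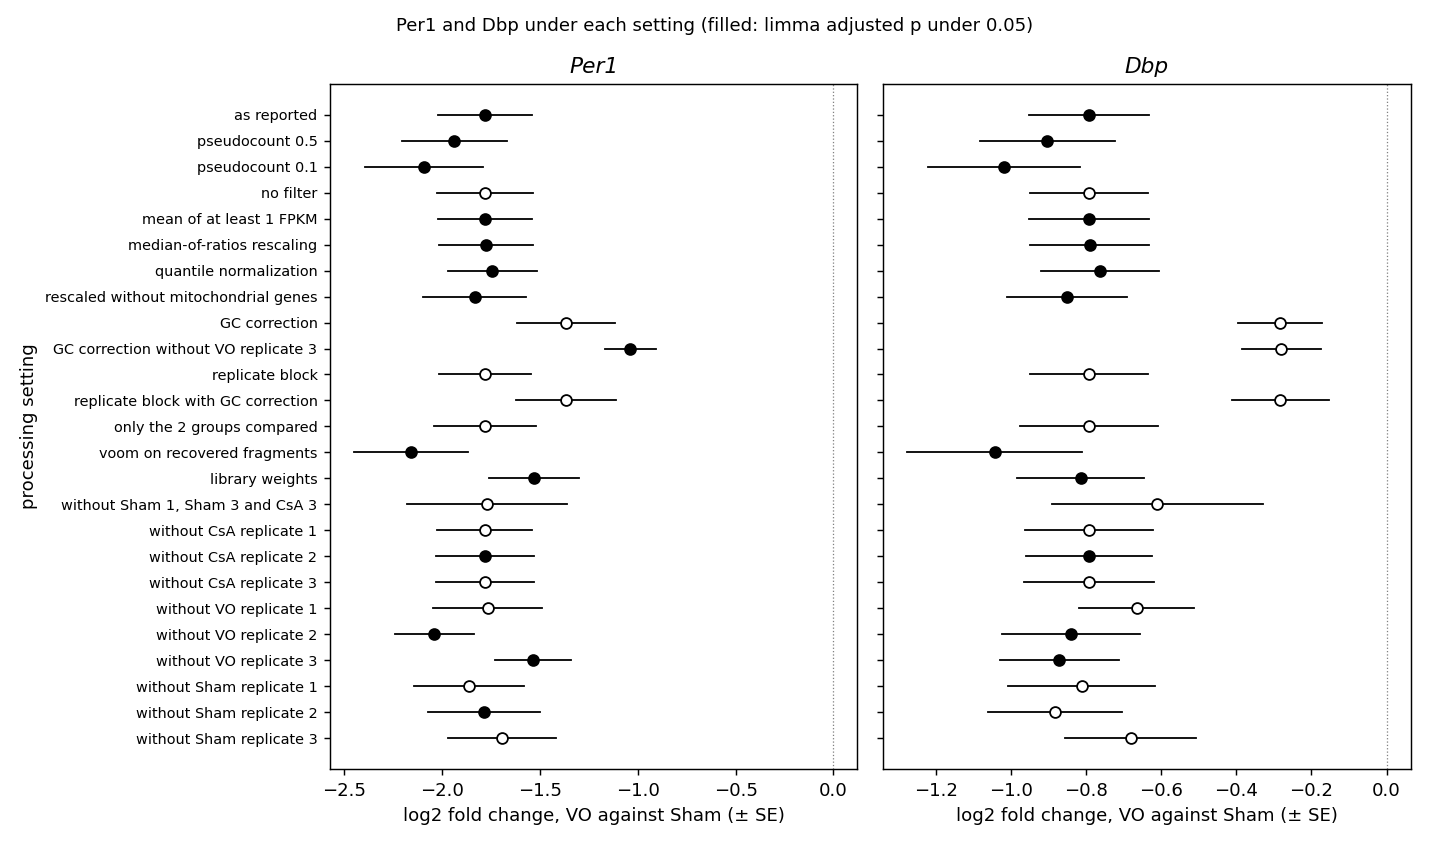
log2 fold change of Per1 (left) and Dbp (right) in VO against Sham (x axis, ± SE) under the reported fit and 24 other settings (y axis), with filled points where the limma adjusted p was under 0.05; the x ranges of the panels differ, and the voom values are on the scale of log2 CPM. All points lie below 0, between -2.16 and -1.04 for Per1 and between -1.04 and -0.28 for Dbp, with the values nearest to 0 after the GC corrections.

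Transcript GC content moved with these differences. GC is the share of G and C bases in the longest GENCODE M21 transcript of a gene. Across all tested genes the median log2 fold change of VO against Sham ran from 0.35 in the decile of genes with the lowest GC to -0.44 in the decile with the highest. The members were spread along this trend, from Clock at 40.93%, Nr1d2 at 41.84% and Hlf at 45.14% to Nr1d1 at 56.82%, Per1 at 59.39% and Dbp at 61.57%. The 3 members above 0 in VO against Sham were the 3 with the lowest GC, and the 3 lowest by fold were the 3 with the highest. Per1 was far out among the 1347 genes of its own decile, of which 0.594% had a lower fold change. Dbp was not, since 19.0% of the same decile lay lower.

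After each library was corrected for its GC trend, neither gene passed. Per1 was at -1.37 ± 0.249 (limma adjusted p = 0.0709) and Dbp at -0.28 ± 0.112 (limma adjusted p = 0.194), and 0 of 13431 genes were called in that setting. When VO 3 was left out before the GC correction, Per1 passed at -1.04 ± 0.131 (limma adjusted p = 0.0495) and Dbp did not, at -0.28 ± 0.105 (limma adjusted p = 0.153). The correction took Clock to -0.12 ± 0.181, Nr1d2 to -0.13 ± 0.194 and Hlf to -0.05 ± 0.187, so that no sign can be given for them. By library, the genes of the highest GC decile deviated from their means over all libraries by a median log2 of -0.456, -0.154 and -0.101 in VO 1 to 3, -0.103, 0.139 and 0.059 in CsA 1 to 3 and 0.229, 0.118 and 0.267 in Sham 1 to 3.

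**Figure D3:**
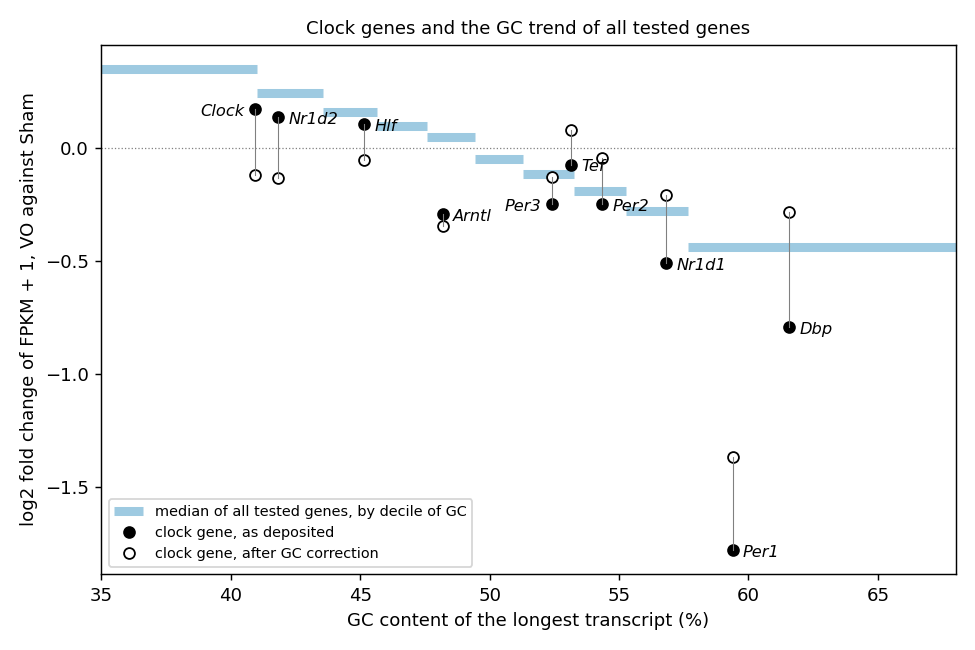
log2 fold change of FPKM + 1 in VO against Sham (y axis) by GC content of the longest transcript (x axis, %), for the 10 clock genes as deposited (filled) and after the GC correction (open), over the medians of all tested genes in deciles by GC (blue bars, drawn over each decile's GC range inside the axis limits). Per1 stays far below the bars and, once corrected, at -1.37, while Dbp is at -0.28 after the correction.

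The other Per genes did not pass. Per2, which with Per1 forms the repressor complex with the CRY proteins, had 2.85, 3.244 and 2.694 FPKM in VO, against 4.167, 3.058 and 3.834 FPKM in Sham (log2 -0.25 ± 0.137, limma adjusted p = 0.254). The groups overlapped, through VO 2 and Sham 2. Per3, the member of the family that the loop needs least, had 3.07, 4.317 and 2.336 FPKM in VO, against 3.732, 3.997 and 4.128 FPKM in Sham (log2 -0.25 ± 0.174, limma adjusted p = 0.367), with VO 2 above every Sham library. The log2 ratio of Per1 to Per2 within a library was -0.068, 0.451 and -0.665 in VO and 1.02, 1.25 and 1.49 in CsA, against 1.35, 1.96 and 1.84 in Sham. Per1 was thus close to Per2 in level in the VO libraries and well above it in the 6 others. The other log2 ratios taken overlapped between VO and Sham. Per1 to Arntl was 0.698, 2.62 and -0.0737 in VO, against 2.27, 3.29 and 2.57 in Sham. Dbp to Arntl was 0.000592, 1.74 and 0.516 in VO, against 0.988, 1.66 and 1.24 in Sham. Nr1d1 to Arntl was 1.36, 2.39 and 1.78 in VO, against 1.53, 2.56 and 1.74. Nr1d1 to Nr1d2 was -2.84, -2.54 and -1.43 in VO, against -1.54, -1.45 and -1.58 in Sham.

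Of the 2 other PAR bZIP factors, Tef had 15.48, 15.31 and 20.42 FPKM in VO, against 18.54, 13.6 and 22.52 FPKM in Sham (log2 -0.07 ± 0.215). Hlf had 9.947, 9.249 and 5.479 FPKM in VO, against 6.567, 8.449 and 7.172 FPKM in Sham (log2 0.10 ± 0.205). Both overlapped between groups (limma adjusted p = 0.85 for Tef and 0.77 for Hlf), with 95% intervals of -0.56 to 0.41 for Tef and -0.35 to 0.56 for Hlf. That of Dbp was -1.15 to -0.43, which overlapped the interval of Tef but not that of Hlf. After the GC correction Dbp was at -0.28 ± 0.112, Tef at 0.08 ± 0.196 and Hlf at -0.05 ± 0.187. The difference between Dbp and these relatives was not tested.

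Among the nuclear receptors, Nr1d1 stood at 4.303, 3.78 and 6.165 FPKM in VO, against 6.372, 7.198 and 7.699 FPKM in Sham. VO lay below Sham without overlap, though VO 3 came close to Sham 1. The log2 fold change was -0.51 ± 0.217 (limma unadjusted p = 0.0412, adjusted p = 0.154), and -0.21 ± 0.193 after the GC correction. Nr1d1 shares 8.55% of its exon bases with Thra on the other strand, whose mean was 11.5 ± 2.88 FPKM in VO, against 19.1 ± 1.27 FPKM in Sham (log2 -0.71 ± 0.209, limma adjusted p = 0.0686). Its relative Nr1d2 had 30.73, 22.02 and 16.59 FPKM in VO, against 18.5, 19.61 and 23.07 FPKM in Sham (log2 0.14 ± 0.24, limma adjusted p = 0.742), with VO 1 above and VO 3 below every Sham library.

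The activators did not pass either. Arntl had 1.677, 0.7214 and 1.789 FPKM in VO, against 2.205, 1.223 and 2.308 FPKM in Sham (log2 -0.29 ± 0.241, limma adjusted p = 0.449). The lowest library of both groups was number 2, and the groups overlapped. Clock had 12.16, 7.427 and 4.978 FPKM in VO, against 6.362, 7.025 and 6.819 FPKM in Sham (log2 0.17 ± 0.243, limma adjusted p = 0.669). Its coefficient of variation was 44.56% in VO and 6.88% in CsA, against 5.03% in Sham. VO 1 was also the library with the strongest tilt toward low GC, where the lowest GC decile deviated by a median log2 of 0.444.

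**Figure D4:**
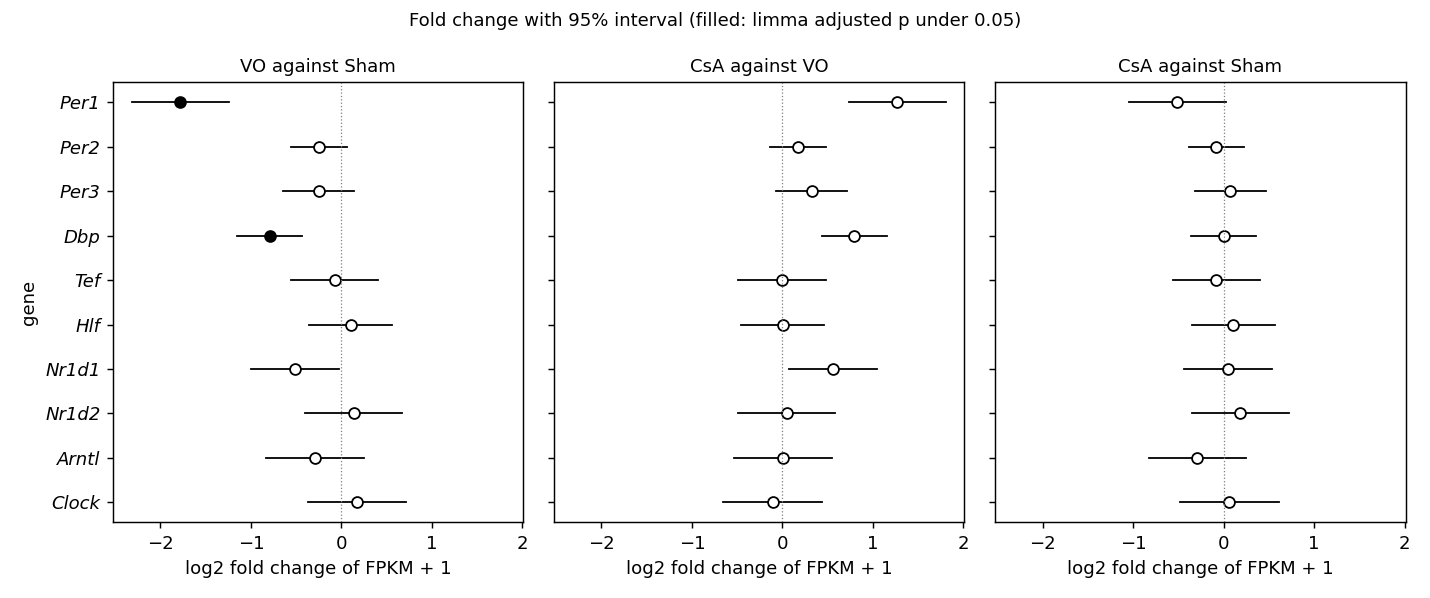
log2 fold change of FPKM + 1 (x axis) with its 95% interval for each clock gene (y axis) in the 3 comparisons, with filled points where the limma adjusted p was under 0.05. Per1 (-1.78) and Dbp (-0.79) in VO against Sham are the filled points; in CsA against VO the same genes lie at 1.27 and 0.79 and are open.

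The comparison of CsA with VO asks about the drug in hearts that all had the fistula, and it shares the VO libraries with the comparison above. The VO group is described as having the surgery alone, so the drug cannot be told apart from its injection. No member passed in limma, in which 0% of tested genes passed (0 of 13477; 2219 at an unadjusted p under 0.05), and voom on recovered fragments called 0 as well. Per1, Dbp and Nr1d1 were under an unadjusted p of 0.05, as were 16.5% of tested genes. Of the members 8 of 10 lay above 0, as did 6708 of 13477 tested genes. The median log2 of the members was 0.11, against 0.00 over all tested genes. By GC decile the median of tested genes ran from -0.20 at the lowest GC to 0.27 at the highest, which held Per1 and Dbp. Of the genes in that decile, 0.817% lay above Per1 and 7.05% above Dbp. CsA lay above VO without overlap for 2 members, Per1 and Dbp, and for 10.9% of tested genes.

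Per1 stood at 6.774, 8.858 and 8.968 FPKM in CsA 1 to 3, against 2.719, 4.433 and 1.70 FPKM in VO 1 to 3. Its means were 8.20 ± 1.24 FPKM in CsA and 2.95 ± 1.38 FPKM in VO, a ratio of 2.78, with a log2 fold change of 1.27 ± 0.239 (95% interval 0.73 to 1.81; limma unadjusted p = 0.000395, adjusted p = 0.204). Dbp stood at 4.173, 4.754 and 4.683 FPKM in CsA, against 1.677, 2.409 and 2.558 FPKM in VO. The ratio of its means was 2.05 and its log2 fold change 0.79 ± 0.16 (limma unadjusted p = 0.000632, adjusted p = 0.204). Each CsA library exceeded each VO library for these genes, while the adjusted test over all genes was not passed. Over the 24 settings Per1 ranged from 0.69 to 1.59 and Dbp from 0.47 to 1.05, and neither passed in any. After the GC correction Per1 was at 1.02 ± 0.249 and Dbp at 0.47 ± 0.112 (limma adjusted p = 0.232 for each).

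Nr1d1 stood at 6.375, 10.27 and 5.941 FPKM in CsA, against 4.303, 3.78 and 6.165 FPKM in VO (log2 0.56 ± 0.217, limma adjusted p = 0.262). CsA 2 was the highest of all libraries, and CsA 3 lay below VO 3. For the other 7 members the log2 fold changes lay between -0.11 for Clock and 0.32 for Per3, with limma adjusted p from 0.375 to 0.998. Tef, Hlf, Arntl and Nr1d2 were within 0.05 of 0 on the log2 scale. Their 95% intervals were wide, from -0.54 to 0.54 for Arntl and from -0.46 to 0.46 for Hlf, so a moderate difference in either direction was not excluded.

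The comparison of CsA with Sham asks how far treated overload differed from the control operation, and it shares libraries with both others. No member passed in limma, in which 0% of tested genes passed (200 at an unadjusted p under 0.05), and voom called 0. No member was under an unadjusted p of 0.05, against 1.48% of tested genes. The spread in this fit is shared with the VO libraries. With only CsA and Sham in the fit, 562 genes were under that p, and Per1 was at -0.51 ± 0.141 (limma adjusted p = 0.829). With library weights 3475 genes were, and Per1 was at -0.44 ± 0.139 (limma adjusted p = 0.124). In both settings 0 genes passed, which does not show that the groups were alike. In the reported fit Per1 was the member with the largest difference: its mean was 8.20 ± 1.24 FPKM in CsA, against 12.08 ± 1.54 FPKM in Sham, with every CsA library (highest 8.968) below every Sham library (lowest 10.63). Its log2 fold change was -0.51 ± 0.239 (95% interval -1.05 to 0.03; limma adjusted p = 1), and 4.94% of tested genes lay lower in CsA without overlap. Dbp stood at 4.54 ± 0.317 FPKM in CsA and 4.56 ± 0.802 FPKM in Sham, a log2 of 0.00 with a 95% interval of -0.36 to 0.36. The other 8 members lay between -0.29 for Arntl and 0.18 for Nr1d2.

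Of the related genes of the clock in 4 lists, 2 of 41 tested passed in VO against Sham (4.88%, near the 4.76% of all tested genes), and 0 passed in the comparisons with CsA. Of 10 other core loop genes (Cry1, Cry2, Npas2, Arntl2, Rora, Rorb, Nfil3, Bhlhe40, Bhlhe41 and Ciart), 7 were tested and 0 passed in any comparison, with a median log2 of -0.13 in VO against Sham, 0.06 in CsA against VO and -0.06 in CsA against Sham. In VO against Sham 3 of these lay above 0 and 4 below, with Cry2 at -0.75 (limma adjusted p = 0.0887). Arntl2, Rorb and Ciart were under the filter. Of 10 kinases, ligases and partners of clock proteins (the casein kinases Csnk1d, Csnk1e and Csnk1a1 among them), 9 were tested and 0 passed, with medians of 0.03 in VO against Sham, -0.04 in CsA against VO and -0.00 in CsA against Sham. The first median lies between genes on both sides, 5 above 0 and 4 below. Csnk1a1 was at 0.55 and Csnk1e at -0.50 in VO against Sham (limma adjusted p = 0.0563 and 0.0502). Among 14 genes known for daily rhythms in peripheral tissues or heart, 13 were tested and 1 was lower in VO than in Sham. This was Tns2, a tensin of cell adhesions, with 10.04 ± 1.25 FPKM in VO, against 25.06 ± 4.77 FPKM in Sham (log2 -1.23 ± 0.238, limma adjusted p = 0.0391). The median of that list was -0.13 in VO against Sham, 0.05 in CsA against VO and -0.11 in CsA against Sham, and 0 passed in the comparisons with CsA.

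Among 12 genes of the glucocorticoid and cAMP inputs, which act on Per1, 1 passed the test as lower in VO than in Sham. The median log2 of the list was -0.44, against 0.00 for all tested genes and -0.44 for the decile with the highest GC. The list median was not corrected for GC. The gene that passed was Klf9, a Kruppel-like factor induced by glucocorticoids, at 19.02, 16.23 and 7.307 FPKM in VO, against 50.36, 32.24 and 63.16 FPKM in Sham (log2 -1.75 ± 0.382, limma adjusted p = 0.0408). VO lay wholly below Sham, with VO 3 the lowest library. Other genes of the list induced by glucocorticoids did not pass in VO against Sham: Tsc22d3 was at a log2 of -0.75 (limma adjusted p = 0.163), Fkbp5 at -0.46 (limma adjusted p = 0.466) and Sgk1 at -0.01 (limma adjusted p = 0.98), all with overlapping groups. Of the 12 genes, 8 lay below 0 in VO against Sham and 4 above. Sik1 was at -1.18, Crtc2 at -0.495 and Crtc1 at -0.416 (limma adjusted p = 0.0632, 0.0944 and 0.1635), each with VO wholly below Sham. Of all tested genes, 17% likewise had VO wholly below Sham. Nr4a1 was at -1.18 (limma adjusted p = 0.236), with overlapping groups. Above 0 lay Crem at 0.44, Creb1 at 0.33, the receptor gene Nr3c1 at 0.22 and the immediate early gene Fos at 0.10. In VO against Sham no gene at all passed without the filter or with only the 2 groups compared. None passed after the GC correction of all 9 libraries, with or without the replicate block. Nor did any pass when CsA 1, CsA 3, VO 1 or Sham 3 was left out, so the calls of Tns2 and Klf9 were lost in all these settings. In CsA against VO, Klf9 stood at 27.62, 50.3 and 26.63 FPKM in CsA (log2 1.28 ± 0.382, limma adjusted p = 0.219), and the list had a median of 0.24 with 0 past the test. In CsA against Sham the list had a median of -0.17 with 0 past the test. The part of these inputs in the Per1 values was not tested.

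Genes with patterns most like those of Per1, Dbp and Arntl were sought among the protein-coding genes averaging 2 FPKM or more, by Pearson correlation of log2(FPKM + 1) over the 9 libraries. For Per1 these were Dennd4b (0.992), Zdhhc8 (0.991) and Nfix (0.987) among 9049 genes. For Dbp they were Islr (0.976), Ier5l (0.972) and Anpep (0.97), and for Arntl they were Pawr (0.926), Inpp4a (0.917) and Arl4d (0.916). The 3 genes nearest to Per1 had GC contents of 57.1% to 59.9%, close to that of Per1 (59.39%). Those nearest to Dbp (61.57%) had 56.0%, 63.8% and 53.3%, and those nearest to Arntl (48.19%) had 56.4%, 50.2% and 55.7%. Dbp was 597th by likeness to Per1 (0.861), and Arntl had a correlation of 0.195 with Per1 and 0.303 with Dbp. The 9 points share their libraries, depth and GC tilt, and 3 groups lie behind them, so these values only describe likeness.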

How the data were processed

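The deposited table gives FPKM for each gene and library, made by the authors. The builds GRCm38 and mm10 and the tools DESeq2 1.20.0, GATK 3.7, featureCounts 1.5.0-p3, HISAT2 2.0.5 and StringTie 1.3.3b appear, without a role, in the list per the submitters' processing notes. Neither annotation release nor strand setting is given in the sources used here. RNA was extracted with Trizol and 1 µg per sample went into a NEBNext Ultra library, per the labels' protocols. The members, lists and tests were chosen with earlier results of these data known.

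Values were taken as log2(FPKM + 1) for genes averaging 0.5 FPKM or more, and fitted in limma 3.58.1 (R 4.3.3) with a mean-variance trend, all 9 libraries and no covariate, with Benjamini-Hochberg adjustment. Fragments were recovered from the FPKM steps (100% of values within 0.1 of a whole fragment; totals 12046288 to 15986747) for voom with median-of-ratios scaling. Copies made by PCR count as fragments like any other. A chi-square per degree of freedom between replicates was 12.45 or more, so no pair agreed within sampling noise. It was 200.4 between VO 1 and VO 3 and 146.4 between VO 2 and VO 3, against at most 29.06 in the other pairs. GC came from GENCODE M21 (99.77% of identifiers matched, 98.33% of these with the same coordinates), with a loess correction (span 0.3, degree 1) leaving out mitochondrial genes. All members were named, as were list genes past the test and the 3 genes most like Per1, Dbp and Arntl. Values of Cry2, Csnk1e, Csnk1a1 and the other genes of the glucocorticoid and cAMP input list were given as well. Some genes of the lists are not reported here. Alternatives were pseudocounts, filters, scalings, GC correction, replicate block, groups in the fit, voom, weights and left-out libraries. The fit was also run on simulated data with known changes. These held independent normal noise for each gene, without a GC tilt or an outlying library, so they do not test the calls made here. Figures used matplotlib 3.10.9 under Python 3.11.15.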

Additional observations from a re-analysis of the deposited data

How the results depend on the processing

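In VO against Sham the count of all genes called (642) and of clock genes called (2) fell to 0 and 0 with no filter, with the GC correction, with the replicate block and GC correction together, and with only the 2 groups compared; to 1 and 0 with the replicate block; to 3 and 0 without Sham 1, Sham 3 and CsA 3; and to 19 and 1 with the GC correction without VO 3. Leaving out 1 library at a time gave 0 to 2074 genes and 0 to 2 clock genes. In CsA against VO the count of 0 genes became 1 with the GC correction without VO 3 and ranged from 0 to 1 over single left-out libraries; in CsA against Sham it became 2 without Sham 1, Sham 3 and CsA 3 and ranged from 0 to 3. Rescaling without mitochondrial genes called 215 higher and 547 lower genes in VO against Sham, against 275 and 367. Of 240 alternative fold changes of clock genes per comparison, 18, 23 and 18 changed sign in VO against Sham, CsA against VO and CsA against Sham, none of a called gene, and none where the reported log2 value exceeded 0.292 in size; the cause was not tested. Deviations from group means correlated between -0.4 and 0.237 over 9 same-numbered pairs, and between -0.194 and 0.274 over differently numbered pairs. Such correlations also carry the library differences described above, so they cannot tell whether the numbers pair the libraries. Dbp and Arntl, with as few as 80 and 70 fragments in a library, are the members that depth limits most.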
